A study of Mus musculus with 12 samples.

Results

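RNA levels with isorhamnetin and with DMSO were compared in the unedited (WT) form of J774.1, a macrophage-like mouse cell line of BALB/c origin. All libraries labelled WT were taken, which gave 4 of the 12 libraries of the series. The WT IR group held 2 libraries of cells kept for 6 h with isorhamnetin at 10 µM, and the WT DMSO group held 2 libraries of cells kept for 6 h with DMSO, the solvent. The other 8 libraries came from a Rictor-KO and a GATA3-KO line of the same cells, each with the same 2 treatments. Both WT groups come from 1 line with no added stimulus in the labels. The labels do not say whether the 2 replicates of a group were separate cultures. The spread behind each p-value is that between libraries and may be technical. Of 25683 genes listed, 15156 had an exon read and 11808 were tested.

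Isorhamnetin is a methylated plant flavonol, studied as an anti-inflammatory and antioxidant compound. In macrophages, the transcription factor NF-kB drives cytokine and chemokine genes after a danger signal, and the interferons released then act through factors such as STAT2 and IRF9 on a separate set of antiviral genes. The factor NRF2, held down by KEAP1, turns on genes for glutathione, quinone reduction and iron storage when cells meet electrophiles.

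Exon reads numbered 39361017 and 38118553 in the WT IR libraries, and 37313642 and 38991173 in the WT DMSO libraries. Reads in introns made up 6.004% and 6.111% of reads in genes with isorhamnetin, and 6.413% and 7.42% with DMSO. Of 12 macrophage markers, 11 had reads in all 4 WT libraries, and the exception, the engulfment receptor gene Mertk, had 0 and 2 reads in WT IR libraries and 0 in both WT DMSO libraries. The summed level of these markers was 7666 and 7102 CPM (counts relative to the TMM-scaled library size) in WT IR libraries, against 11099 and 11328 CPM in WT DMSO libraries. The markers did not move as one, since 2 of the 11 tested were higher and 4 lower, with a median log2 fold change of -0.06. The T cell genes Cd3e, Cd3d, Cd3g, Cd8a and Trac had 0 reads in all 4. The costimulatory receptor gene Cd28 had 35 and 80 reads in WT IR libraries, against 0 in both WT DMSO libraries. Lck went the other way, with 74 and 78 reads in WT IR libraries, against 117 and 169 in WT DMSO libraries. Of 2 T cell genes tested, 1 was higher and 1 lower. The whole T cell list summed to 2.75 and 4.02 CPM with isorhamnetin and to 3.44 and 4.75 CPM with DMSO. In bulk RNA, fewer cells of a kind and less RNA per cell cannot be told apart.

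On some gene lists, WT cells with DMSO were unlike the other 10 libraries of the series. Summed over 21 inflammatory cytokine genes, the level was 775 and 405 CPM in WT IR libraries, against 4928 and 5844 CPM in WT DMSO libraries. The 8 knockout libraries had 577 to 748 CPM. For 16 chemokine genes the sums were 1067 and 577 CPM in WT IR libraries, against 6979 and 8054 CPM in WT DMSO libraries, and 425 to 628 CPM in the knockouts. The WT DMSO libraries were thus the highest of the 12 on both lists, and the WT IR libraries lay near the knockout libraries. On 49 genes of DNA replication, the WT DMSO libraries were instead the lowest of the 12. The sums were 7010.2 and 7264 CPM in WT IR libraries, against 5334 and 4889 CPM in WT DMSO libraries, and 7539 to 8429 CPM in the knockouts. On 17 glutathione genes the WT DMSO sums, 1653 and 1696 CPM, lay within the 1426 to 1851 CPM of the knockout DMSO libraries. The effect of isorhamnetin and the state of the WT DMSO cultures rest on the same 2 libraries and cannot be told apart. The 2 WT IR libraries also differed from each other at inflammatory genes, where the second was the lower one. Of 8859 genes with a mean log2 CPM of at least 3, 22 differed over 2-fold between the WT IR libraries, and 2 did so between the WT DMSO libraries.

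**Figure D1:**
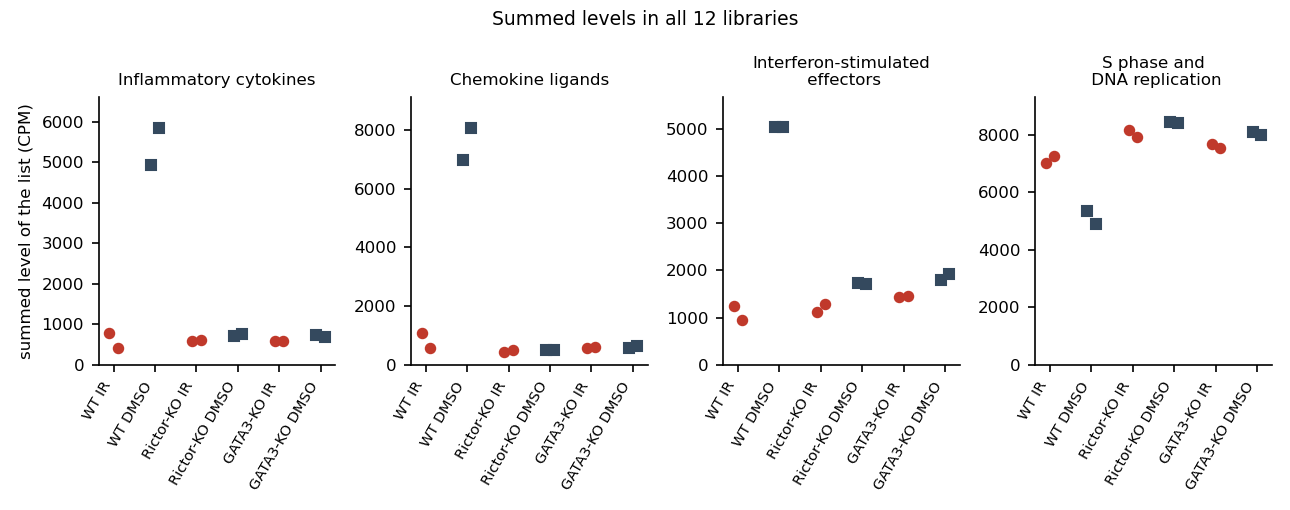
Summed level in CPM of 4 gene lists (panels) in each of the 12 libraries; red circles are isorhamnetin and dark squares are DMSO libraries, with 2 per group. The WT DMSO squares are the highest points for cytokines, chemokines and interferon-stimulated effectors, and the lowest for S phase genes.

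Between the WT groups, 4493 genes (38.1% of those tested) passed an adjusted p of 0.05 in edgeR's quasi-likelihood test with Benjamini-Hochberg adjustment. With isorhamnetin, 2336 (19.8%) were higher and 2157 (18.3%) were lower. Of these, 1059 (8.97%) changed at least 2-fold, among which 564 (4.78%) were higher and 495 (4.19%) were lower. The CPM ranges of the 2 groups did not overlap in 8993 genes (76.2%), so a lack of overlap alone says little here. The median log2 fold change of all genes tested was 0.01. These shares are the background for every list described here. A list's count in 1 direction is set against 19.8% higher or 18.3% lower, and needs far more than that to stand out. The higher and lower split was 2848 against 1671 with upper-quartile scaling and 3588 against 1257 with library totals alone, which moved the median of all genes to 0.085 and 0.169 on the log2 scale. When a change of at least 1.5-fold was the tested size, 948 genes passed. Without the second WT IR library 2592 genes passed, and without the second WT DMSO library 2812.

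Among genes with a mean log2 CPM of at least 3, the largest increases were in Gpnmb, Layn and Cbr3, while some genes of lower level, such as the iron exporter gene Slc40a1 and the chemokine receptor gene Cxcr4, had larger fold changes (6.76 and 6.39 on the log2 scale). Gpnmb, which encodes a lysosomal and membrane glycoprotein, had 54.3 and 66.7 CPM in WT IR libraries, against 2.53 and 2.11 CPM in WT DMSO libraries. Layn, a hyaluronan receptor, had 42.3 and 38.6 CPM in WT IR libraries, against 1.68 and 1.91 CPM in WT DMSO libraries. Cbr3, a carbonyl reductase, had 28.4 and 32.3 CPM in WT IR libraries, against 2.03 and 1.35 CPM in WT DMSO libraries. The naming rule given below took only genes whose groups did not overlap, so this was fixed for these 3. The means differed by 26.1-fold, 22.5-fold and 17.99-fold (log2 fold changes 4.71, 4.49 and 4.17). Slc6a8, the creatine transporter, was 8.08-fold higher, and Angptl2, a secreted angiopoietin-like protein, was 7.91-fold higher. Nrp1, a co-receptor for semaphorins and VEGF, was 5.77-fold higher, and Serpinb9, the inhibitor of granzyme B, 5.68-fold higher. Counted in reads rather than in fold, the largest increases were in the ferritin genes, Lipa, Ctsb, Ank and Ahnak. Ank, a membrane protein that exports pyrophosphate and ATP, had 1489.8 and 1236 CPM in WT IR libraries, against 634 and 555 CPM in WT DMSO libraries.

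**Figure D2:**
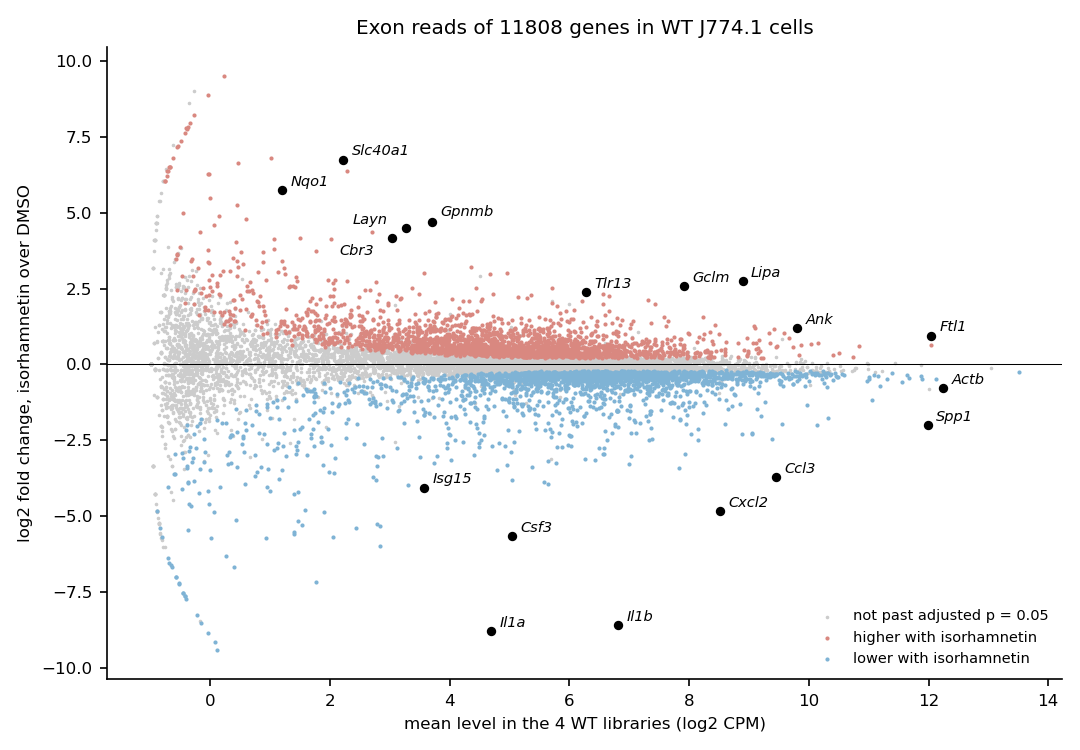
Log2 fold change of exon reads, isorhamnetin over DMSO in WT cells, against mean level in the 4 WT libraries (log2 CPM) for the 11808 genes tested; red and blue mark genes past the threshold. Il1a and Il1b lie lowest among abundant genes, and Lipa and Gclm lie highest among the more abundant genes.

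Inflammatory cytokine genes were lower with isorhamnetin, with 17 of 21 tested members lower (81.0%) and 0 higher, and a median log2 fold change of -2.48. Il1b, which encodes the secreted fever cytokine interleukin-1 beta, had 10.01 and 2.24 CPM in WT IR libraries, against 2124 and 2638 CPM in WT DMSO libraries. Il1a, the alarmin of the same family, had 1.44 and 0.611 CPM in WT IR libraries, against 406 and 514 CPM in WT DMSO libraries. Csf3, the neutrophil growth factor G-CSF, had 5.73 and 3.26 CPM in WT IR libraries, against 189.6 and 269 CPM in WT DMSO libraries. For each of the 3, both isorhamnetin libraries lay far below both DMSO libraries, and the second was the lower of them. In the test, Il1b had a log2 fold change -8.60, SE 1.41, adjusted p = 0.00405, and Il1a a log2 fold change -8.80, SE 0.34, adjusted p = 3.71e-07. Osm, oncostatin M, had 11.8 and 8.40 CPM with isorhamnetin and 46.8 and 49.1 CPM with DMSO (log2 fold change -2.25, adjusted p = 4.66e-07). Tnf, the founding member of its cytokine family, had 381 and 135 CPM in WT IR libraries, against 1188 and 1288 CPM in WT DMSO libraries (log2 fold change -2.26, adjusted p = 0.00867). The Tnf call was lost when only the 4 WT libraries were fitted (adjusted p = 0.136). Il6 had 0 reads in both WT IR libraries, against 31 and 120 reads in WT DMSO libraries, which puts it at least 56.3-fold lower against a floor of 3 reads over the group. Tgfb1, usually counted as a restraining cytokine, was also lower (185 and 147 CPM with isorhamnetin and 445 and 422 CPM with DMSO). The cytokine genes Csf1, Il10, Il15 and Il7 did not pass, at log2 fold changes of -0.85, -2.18, -0.41 and -0.43, although Il10 passed in the 4 WT libraries alone (adjusted p = 0.0321).

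Chemokine genes followed the same direction, with 12 of 16 lower (75.0%), 0 higher and a median of -2.42. Cxcl2, which draws neutrophils, had 119.8 and 31.8 CPM in WT IR libraries, against 1948 and 2414 CPM in WT DMSO libraries. Ccl3, an attractant of monocytes and other leukocytes, had 277 and 124 CPM in WT IR libraries, against 2457 and 2773 CPM in WT DMSO libraries, and Ccl2, a ligand of CCR2, had 3.53 and 1.17 CPM with isorhamnetin and 33.2 and 40.4 CPM with DMSO. Cxcl10, an interferon-induced ligand of CXCR3, had 5.40 and 3.87 CPM in WT IR libraries, against 25.7 and 22.7 CPM in WT DMSO libraries. In all 4 genes the groups did not overlap, as in 76.2% of all genes tested. The log2 fold changes were -4.85, -3.71, -3.96 and -2.38. Ccl4 was 10.6-fold lower and Ccl22, a ligand of CCR4, 52.3-fold lower. Fitted on the 4 WT libraries alone, Cxcl2 and Ccl4 missed the threshold (adjusted p = 0.0678 and 0.0686). The platelet factor gene Pf4 stood on the other side, with a log2 fold change of 0.93 that did not pass (adjusted p = 0.55).

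Promoters of 2 chemokine genes are shown, each 250 bases upstream of the RefSeq start on GRCm38.p6, read 5′ to 3′ on the gene's strand. Matches to a kappaB motif are in capitals (GGGA, 1 free base, TT, 1 free base and CC, searched on both strands). Promoters here and below were picked from called genes that held the motif, so each match was a condition of the choice. Cxcl2 lies at chr5:90903649-90903898 on the plus strand and Cxcl10 at chr5:92348890-92349139 on the minus strand.
Cxcl2: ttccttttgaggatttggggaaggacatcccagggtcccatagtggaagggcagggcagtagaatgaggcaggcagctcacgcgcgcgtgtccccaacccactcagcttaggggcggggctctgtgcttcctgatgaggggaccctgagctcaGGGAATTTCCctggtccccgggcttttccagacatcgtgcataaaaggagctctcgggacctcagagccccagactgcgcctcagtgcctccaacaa
Cxcl10: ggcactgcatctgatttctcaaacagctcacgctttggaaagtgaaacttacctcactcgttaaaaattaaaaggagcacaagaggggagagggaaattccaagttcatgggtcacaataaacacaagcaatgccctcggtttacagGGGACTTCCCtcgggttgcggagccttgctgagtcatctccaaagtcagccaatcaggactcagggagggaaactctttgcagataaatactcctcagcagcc
Of 9 tested chemokine genes with a promoter in the table, 3 held the motif (33.33%). It was in 14 of 378 genes that were at least 2-fold lower (3.7%) and in 1.38% of all tested genes with a promoter.

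The NF-kB subunits themselves split. Nfkb1, which encodes the p105 precursor of p50, had 212 and 179.7 CPM in WT IR libraries, against 748 and 791 CPM in WT DMSO libraries, and Rel, the c-Rel subunit, had 78.00 and 70.5 CPM with isorhamnetin and 269 and 294 CPM with DMSO. Rela, the p65 subunit, had 60.01 and 57.8 CPM in WT IR libraries, against 55.8 and 60.3 CPM in WT DMSO libraries (log2 fold change 0.02, adjusted p = 0.908). The first 2 were clearly separated between groups, and Rela differed by less than the test could call. Feedback genes that NF-kB itself turns on were lower: Nfkbia, the inhibitor IkB-alpha, had 159 and 123 CPM with isorhamnetin and 416 and 476 CPM with DMSO, and Tnfaip3, the A20 ubiquitin editor, was 2.55-fold lower. Over the NF-kB list, 16 of 30 genes were lower (53.3%) and 2 were higher, with a median of -0.48. The 2 higher genes were Ikbkg, the kinase scaffold NEMO (76.9 and 70.5 CPM with isorhamnetin and 56.2 and 58.4 CPM with DMSO), and Cyld, a deubiquitinase that restrains the pathway (56.7 and 65.5 CPM with isorhamnetin and 50.7 and 48.1 CPM with DMSO). Ikbkg was lost without the first library of either WT group (adjusted p = 0.073 and 0.0802). Cyld was lost without the second WT IR library (0.316), either WT DMSO library (0.1 and 0.199) or the first GATA3-KO DMSO library (0.057), each value an adjusted p. Relb and the kinase gene Ikbkb did not pass, at -0.17 and -0.15 on the log2 scale.

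Upstream sensors were mixed. Of 22 Toll-like receptor and adaptor genes, 10 were lower and 2 were higher, with a median of -0.26. Without the second WT IR library 6 were lower, and with library totals 7 were lower and 4 higher. Tlr13, a receptor for bacterial ribosomal RNA, rose, with 163 and 189 CPM in WT IR libraries, against 35.1 and 31.9 CPM in WT DMSO libraries (log2 fold change 2.39, adjusted p = 2.40e-09). Tlr4, the endotoxin receptor, had 61.8 and 80.6 CPM with isorhamnetin and 46.5 and 44.1 CPM with DMSO, and its co-receptor gene Cd14 had 861 and 537 CPM in WT IR libraries, against 2302 and 2495 CPM in WT DMSO libraries. So 2 genes of one receptor complex changed in opposite directions (0.65 and -1.78 on the log2 scale). Myd88, the adaptor most of these receptors share, was 2.02-fold lower. In the inflammasome list 8 of 16 were lower. Nlrp3, the sensor, had 157 and 97.01 CPM in WT IR libraries, against 486 and 507 CPM in WT DMSO libraries, while Casp1, the protease it activates, had 59.9 and 65.1 CPM with isorhamnetin and 60.9 and 58.5 CPM with DMSO and did not pass (adjusted p = 0.633). P2rx7, the ATP-gated channel, rose (22.02 and 25.7 CPM with isorhamnetin and 16.1 and 13.2 CPM with DMSO). Lowered lists also held 7 of 13 costimulatory ligand genes, among them Cd40 (9.76 and 5.04 CPM with isorhamnetin and 54.4 and 64.5 CPM with DMSO) and Cd80 (8.48 and 5.50 CPM with isorhamnetin and 40.8 and 37.5 CPM with DMSO). Havcr2, the checkpoint receptor TIM-3, went the other way, with 40.8 and 54.7 CPM in WT IR libraries, against 11.7 and 9.88 CPM in WT DMSO libraries.

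Interferon-stimulated effector genes gave the most uniform decrease. Of 49 tested, 46 were lower (93.9%, against 18.3% of all genes) and 0 higher, with a median log2 fold change of -2.75. The number was 44 to 46 when each WT library was left out in turn. Isg15, a ubiquitin-like modifier, had 3.56 and 1.86 CPM in WT IR libraries, against 43.8 and 46.8 CPM in WT DMSO libraries. Mx2, an antiviral GTPase, had 1.21 and 0.585 CPM in WT IR libraries, against 32.9 and 36.3 CPM in WT DMSO libraries, and Zbp1, a sensor of Z-form nucleic acid, had 1.56 and 1.58 CPM with isorhamnetin and 20.8 and 20.3 CPM with DMSO. The groups did not overlap, as in 76.2% of all genes tested. The means were 16.7-fold, 38.4-fold and 13.1-fold lower with isorhamnetin (log2 fold changes -4.06, -5.26 and -3.71). Oasl1, of the oligoadenylate synthetase family, was 6.67-fold lower, Slfn5 15.2-fold lower and Usp18, which removes ISG15 from proteins, 14.7-fold lower. Among the immunity-related GTPases, Irgm1 had 30.4 and 20.8 CPM with isorhamnetin and 163 and 166 CPM with DMSO. The guanylate-binding and immunity-related GTPase list had 8 of 13 lower and 0 higher.

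The promoters of Isg15, at chr4:156200819-156201068 on the minus strand, and Slfn5, at chr11:82951852-82952101 on the plus strand, are shown in the same way, with matches to the interferon-stimulated response element in capitals (GAAA, 2 free bases and GAAA, searched on both strands).
Isg15: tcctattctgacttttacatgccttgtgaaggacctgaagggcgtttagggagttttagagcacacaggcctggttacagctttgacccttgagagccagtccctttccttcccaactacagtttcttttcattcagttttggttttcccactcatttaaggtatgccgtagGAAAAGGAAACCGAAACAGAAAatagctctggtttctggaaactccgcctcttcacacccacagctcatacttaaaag
Slfn5: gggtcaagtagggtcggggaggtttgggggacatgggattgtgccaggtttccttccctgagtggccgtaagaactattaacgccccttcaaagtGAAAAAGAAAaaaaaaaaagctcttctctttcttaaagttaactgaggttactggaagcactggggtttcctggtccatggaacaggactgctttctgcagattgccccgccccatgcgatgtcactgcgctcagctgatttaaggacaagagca
The 3 matches in Isg15 overlap each other and form 1 run, while Slfn5 holds 1 match. Of 36 effector genes with a promoter in the table, 18 held the motif, against 3.36% of tested genes. Among genes at least 2-fold lower the share was 13.23%, and among those at least 2-fold higher 2.22%.

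The factors that carry interferon signals fell with these genes, while 3 receptor genes rose. Stat2 had 20.7 and 24.7 CPM in WT IR libraries, against 57.6 and 60.4 CPM in WT DMSO libraries, and Irf9, its DNA-binding partner, had 44.4 and 32.1 CPM with isorhamnetin and 89.3 and 93.1 CPM with DMSO. Irf7, which amplifies the interferon response, had 19.3 and 13.4 CPM in WT IR libraries, against 149 and 149 CPM in WT DMSO libraries. None of these 3 genes overlapped between groups, which held for 76.2% of all genes tested. Their adjusted p-values in edgeR were 3.08e-05, 7.97e-06 and 0.000568. The receptor genes Ifnar1 (101 and 109.8 CPM with isorhamnetin and 76.7 and 77.2 CPM with DMSO), Ifnar2 (70.1 and 79.5 CPM with isorhamnetin and 53.2 and 46.1 CPM with DMSO) and Ifngr1 (40.2 and 45.7 CPM with isorhamnetin and 32.3 and 28.6 CPM with DMSO) rose by 1.37-fold, 1.51-fold and 1.41-fold. Irf3, the factor that starts interferon production, did not pass, with 41.6 and 38.2 CPM with isorhamnetin and 41.1 and 39.1 CPM with DMSO and a log2 fold change of -0.01. Stat3, which serves interleukin-6 family cytokines, had 62.9 and 58.8 CPM with isorhamnetin and 147 and 152 CPM with DMSO, and its feedback gene Socs3 had 59.6 and 25.7 CPM in WT IR libraries, against 381 and 447 CPM in WT DMSO libraries, with an adjusted p of 0.0537 in the 4 WT libraries alone. Of the STAT, Janus kinase and SOCS list 11 of 20 were lower and 0 higher, or 2 higher with library totals. MHC class I presentation had 11 of 20 lower with a small median of -0.28, and 5 to 10 when a WT library was left out, the fewest without the second WT IR library. Tap1, the peptide transporter, was 2.59-fold lower and B2m, the light chain, 1.62-fold lower. In MHC class II, 1 of 8 genes passed, Cd74, the invariant chain (112 and 113 CPM with isorhamnetin and 234 and 223 CPM with DMSO).

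Of the enzymes of nitric oxide, arginine and itaconate, 3 of 6 tested were lower and 0 higher. Among genes of prostaglandin, leukotriene and histamine synthesis, 5 of 13 were higher and 2 lower, with a median of 0.58, and 2 were higher without the second library of either WT group and 3 without the first WT DMSO library. Acod1, which makes itaconate, had 287 and 151 CPM in WT IR libraries, against 967 and 1161 CPM in WT DMSO libraries, and Ptgs2, the inducible cyclooxygenase, had 140.0 and 47.97 CPM in WT IR libraries, against 664 and 789.8 CPM in WT DMSO libraries. Neither passed in the 4 WT libraries alone (adjusted p = 0.0649 for Acod1 and 0.0972 for Ptgs2). Nos2, inducible nitric oxide synthase, was low in both groups (0.404 and 0.305 CPM with isorhamnetin and 8.85 and 11.3 CPM with DMSO), and Gch1, which makes its cofactor, had 29.4 and 19.5 CPM with isorhamnetin and 67.4 and 66.05 CPM with DMSO. Of the prostaglandin and leukotriene list, Alox5ap, the activator of 5-lipoxygenase, had 120.2 and 143 CPM in WT IR libraries, against 65.2 and 68.04 CPM in WT DMSO libraries, and Pla2g4a, which releases arachidonic acid, had 304 and 284 CPM with isorhamnetin and 194 and 192 CPM with DMSO. Both rose (log2 fold changes 0.98 and 0.61). Of the matrix and plasminogen list 10 of 18 were lower. Spp1, osteopontin, had 2556 and 1559 CPM in WT IR libraries, against 8439 and 8185 CPM in WT DMSO libraries (log2 fold change -2.01, adjusted p = 0.0109). Without the second WT IR library Spp1 had an adjusted p of 0.0709. Plaur, the urokinase receptor, had 158 and 86.3 CPM with isorhamnetin and 663 and 716 CPM with DMSO, and Timp1, a metalloproteinase inhibitor, had 0.151 and 0.0509 CPM with isorhamnetin and 5.05 and 6.09 CPM with DMSO.

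**Figure D3:**
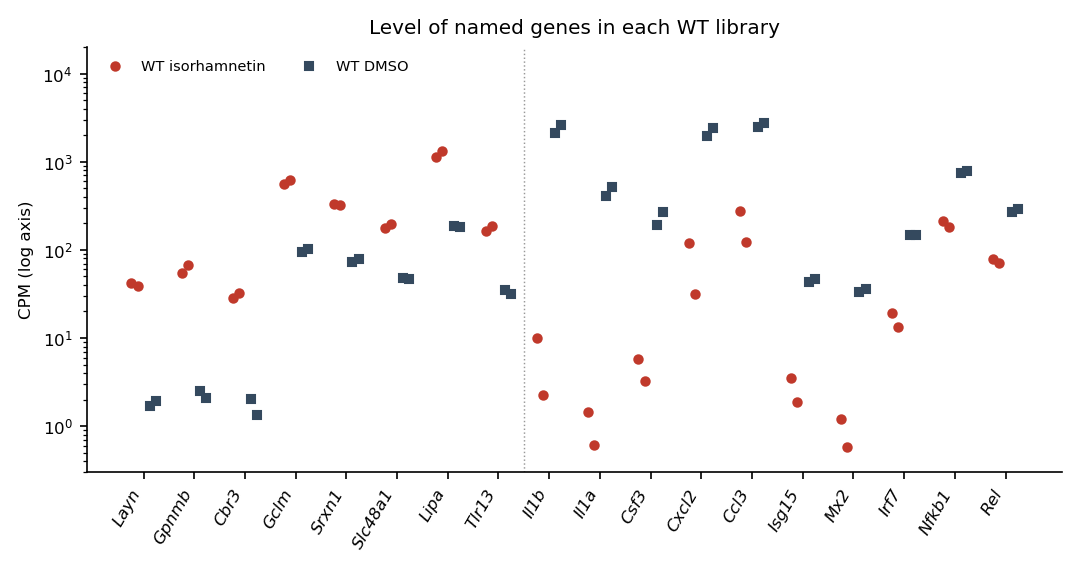
Level in CPM (log axis) of 18 named genes in each WT library; red circles are the 2 isorhamnetin and dark squares the 2 DMSO libraries. The genes left of the dotted line are higher and those right of it lower with isorhamnetin. The groups do not overlap in any of the 18, as in 76.2% of all genes tested.

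Genes of glutathione, quinone and iron handling rose, while NRF2 and both of its best-known restraints did not pass in their own RNA. Of 12 NRF2 regulators, 3 were higher and 3 lower, and 5 and 2 with library totals. The small Maf partner genes Maff (7.62 and 5.73 CPM with isorhamnetin and 14.8 and 15.9 CPM with DMSO) and Mafk (43.9 and 31.6 CPM with isorhamnetin and 77.7 and 80.3 CPM with DMSO) were lower (log2 fold changes -1.20 and -1.07). Nfe2l2, which encodes NRF2, had 159.9 and 161 CPM in WT IR libraries, against 174 and 167 CPM in WT DMSO libraries (log2 fold change -0.09, adjusted p = 0.538). Keap1 had 132 and 132 CPM with isorhamnetin and 114 and 120.5 CPM with DMSO and Bach1, a repressor at the same sites, had 55.6 and 59.9 CPM with isorhamnetin and 53.4 and 45.4 CPM with DMSO, neither past the threshold. With library totals alone both passed (adjusted p = 0.00829 for Keap1 and 0.0311 for Bach1), and Keap1 also did so in the 4 WT libraries alone (0.0297) and with upper-quartile scaling (0.03). Sqstm1, the p62 receptor that binds KEAP1, rose, with 1247 and 961 CPM in WT IR libraries, against 567 and 645 CPM in WT DMSO libraries. Against this, Gclm, the modifier subunit of the enzyme that starts glutathione synthesis, had 557 and 618 CPM in WT IR libraries, against 94.1 and 101 CPM in WT DMSO libraries (log2 fold change 2.59, SE 0.11, adjusted p = 1.93e-09). Gclc, its catalytic subunit, had 196 and 218 CPM with isorhamnetin and 85.7 and 78.2 CPM with DMSO, and Gsr, glutathione reductase, had 497 and 539 CPM with isorhamnetin and 185 and 167 CPM with DMSO. All 3 were separated between groups, from 2.52-fold to 6.03-fold. In the glutathione list 10 of 17 were higher (58.8%) and 2 lower, with a median of 0.49. The lower members were Glrx, glutaredoxin (98.6 and 64.9 CPM with isorhamnetin and 207 and 207 CPM with DMSO), and Gstt1, a transferase at 0.505 and 0.153 CPM with isorhamnetin and 2.20 and 1.91 CPM with DMSO, which missed the threshold without the second WT IR library (adjusted p = 0.0604). Slc7a11, the cystine importer, had 471 and 340.0 CPM with isorhamnetin and 203 and 246 CPM with DMSO (log2 fold change 0.85, adjusted p = 0.0124). Its call was lost in the 4 WT libraries alone (adjusted p = 0.0845), in the fit with a replicate block, and without the first WT DMSO library.

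Quinone, carbonyl and conjugation enzymes rose in 13 of 15 (86.7%, against 19.8% of all genes), with 0 lower, a median of 0.90, and 10 to 12 higher when 1 WT library was left out. Nqo1, the quinone reductase used as a standard reporter of NRF2, was low in absolute terms, at 6.26 and 9.59 CPM in WT IR libraries, against 0.235 and 0.0562 CPM in WT DMSO libraries. Esd, S-formylglutathione hydrolase, had 878 and 800.4 CPM in WT IR libraries, against 346 and 355 CPM in WT DMSO libraries. Ugt1a7c, a glucuronosyltransferase, had 83.3 and 95.4 CPM with isorhamnetin and 37.6 and 35.5 CPM with DMSO, and is uncertain since 47.7% of its reads were unique and exons are shared across its gene cluster. In the thioredoxin and peroxide list the direction was mixed, with 6 higher and 4 lower of 17. Srxn1, sulfiredoxin, had 332 and 326 CPM in WT IR libraries, against 72.2 and 79.2 CPM in WT DMSO libraries, Txnrd1, thioredoxin reductase, had 911 and 841 CPM with isorhamnetin and 550.4 and 591 CPM with DMSO, and Osgin1, an oxidative-stress-induced inhibitor of growth, had 11.4 and 15.7 CPM with isorhamnetin and 2.06 and 2.81 CPM with DMSO. Sod2, the mitochondrial superoxide dismutase that NF-kB also turns on, was lower (205 and 175 CPM with isorhamnetin and 322 and 378 CPM with DMSO). NADPH supply rose in 8 of 15, and in 5 without the second WT DMSO library, with Pgd at 1074 and 1109 CPM in WT IR libraries, against 527 and 543 CPM in WT DMSO libraries and Taldo1 at 453 and 489 CPM with isorhamnetin and 222 and 231 CPM with DMSO. Nadk, which makes NADP from NAD, was lower (431 and 383 CPM with isorhamnetin and 782 and 792 CPM with DMSO).

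In iron handling 10 of 20 were higher and 3 lower, and the lower ones numbered 1 or 2 when any WT library was left out. Slc40a1, ferroportin, the exporter of iron, had 25.1 and 31.5 CPM in WT IR libraries, against 0.235 and 0.281 CPM in WT DMSO libraries, and was thus close to absent with DMSO. Fth1, ferritin heavy chain, had 5394 and 5068 CPM in WT IR libraries, against 3329.8 and 3395 CPM in WT DMSO libraries, and Ftl1, the light chain, had 5944 and 5810.4 CPM in WT IR libraries, against 3039 and 3034 CPM in WT DMSO libraries, with 75.8% unique reads, which makes its level uncertain. Hmox1, heme oxygenase-1, had 562 and 522 CPM with isorhamnetin and 219.6 and 221 CPM with DMSO, Slc48a1, which moves heme out of lysosomes, had 179 and 196 CPM with isorhamnetin and 48.2 and 46.2 CPM with DMSO, and Blvrb, biliverdin reductase B, had 115 and 112 CPM with isorhamnetin and 33.5 and 32.6 CPM with DMSO. None of these 6 overlapped between groups, which held for 76.2% of all genes tested. Among efflux pumps 8 of 13 were higher. Abcc1, which exports glutathione conjugates, had 704 and 648 CPM in WT IR libraries, against 363 and 385 CPM in WT DMSO libraries. Abca1, the cholesterol exporter, had 21.4 and 19.4 CPM in WT IR libraries, against 80.9 and 99.8 CPM in WT DMSO libraries and was lower.

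One promoter from these lists, Gclm at chr3:122245307-122245556 on the plus strand, is shown with the antioxidant response element letters TGACNNNGC, here read on the opposite strand, in capitals.
Gclm: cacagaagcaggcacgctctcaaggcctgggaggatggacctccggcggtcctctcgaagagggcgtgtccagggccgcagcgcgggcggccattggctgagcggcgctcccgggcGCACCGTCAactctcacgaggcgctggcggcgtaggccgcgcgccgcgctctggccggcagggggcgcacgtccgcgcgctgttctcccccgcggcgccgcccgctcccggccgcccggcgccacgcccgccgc
The motif was in 1 of 15 glutathione genes (6.67%) and 1 of 13 quinone genes (7.69%) with a promoter in the table, against 13.87% of tested genes and 17.11% of those at least 2-fold higher. It can overlap the AP-1 letters TGANTCA, which were in 5.55% of tested genes, in 8.44% of those at least 2-fold higher and in 13.49% of those at least 2-fold lower.

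Cell cycle genes were higher with isorhamnetin. In the S phase and replication list 42 of 49 rose (85.7%), 0 fell, and the median was 0.50. With 1 WT library left out, 32 to 39 rose, the fewest without the second library of either group, and 1 fell without the first WT IR library. Tk1, thymidine kinase, had 101 and 117 CPM in WT IR libraries, against 40.3 and 37.3 CPM in WT DMSO libraries, Pcna, the replication clamp, had 507 and 506 CPM with isorhamnetin and 319 and 289 CPM with DMSO, and Mcm6, of the replicative helicase, had 339.9 and 384 CPM with isorhamnetin and 234 and 196 CPM with DMSO. Changes were thus mostly under 2-fold, with Tk1 at 2.81-fold. In the G2/M list 32 of 45 rose, such as Incenp (289 and 322 CPM with isorhamnetin and 177 and 166 CPM with DMSO) and Ccna2, cyclin A2 (288 and 334 CPM with isorhamnetin and 184 and 163 CPM with DMSO), and the exception was Ckap2l, a spindle protein, which was lower (70.8 and 77.2 CPM with isorhamnetin and 110.5 and 108 CPM with DMSO). Summed G2/M levels were 7393 and 8073 CPM in WT IR libraries, against 5958 and 5555 CPM in WT DMSO libraries. Knockout libraries had 7236 to 9612 CPM, so the WT DMSO libraries were the lowest of the 12 here too. Of G1 regulators, E2f2 had 54.9 and 60.3 CPM in WT IR libraries, against 22.5 and 22.5 CPM in WT DMSO libraries. Ccne1, cyclin E1, had 56.98 and 53.6 CPM with isorhamnetin and 32.1 and 28.6 CPM with DMSO. Cdkn1a, the p21 inhibitor of cyclin-dependent kinases, was lower, with 153 and 117 CPM in WT IR libraries, against 330.0 and 315 CPM in WT DMSO libraries (log2 fold change -1.26, adjusted p = 1.15e-05). In the p53 target list 3 were higher and 6 lower of 18, but without the first WT IR library 0 were higher and 8 lower, and without the first WT DMSO library 1 and 4.

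The promoters of the called G1 and replication genes E2f7, at chr10:110745189-110745438 on the plus strand, and Gins3, at chr8:95633309-95633558 on the plus strand, are shown with the E2F letters TTTNNCGC in capitals, read on the opposite strand. E2f7, an atypical repressor of the family, had 27.8 and 35.3 CPM with isorhamnetin and 16.5 and 12.5 CPM with DMSO, and Gins3, part of the replicative helicase complex, had 29.4 and 34.3 CPM with isorhamnetin and 15.99 and 16.2 CPM with DMSO.
E2f7: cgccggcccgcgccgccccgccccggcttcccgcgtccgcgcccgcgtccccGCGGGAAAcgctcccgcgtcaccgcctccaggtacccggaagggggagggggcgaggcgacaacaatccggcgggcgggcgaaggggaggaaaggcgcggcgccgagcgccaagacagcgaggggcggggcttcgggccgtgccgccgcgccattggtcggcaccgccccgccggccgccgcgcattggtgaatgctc
Gins3: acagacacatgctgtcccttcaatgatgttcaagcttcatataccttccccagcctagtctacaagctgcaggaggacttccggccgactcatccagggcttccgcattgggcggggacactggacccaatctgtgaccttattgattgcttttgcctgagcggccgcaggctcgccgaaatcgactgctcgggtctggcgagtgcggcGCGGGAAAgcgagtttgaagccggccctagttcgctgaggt
Of 39 S phase genes with a promoter in the table, 12 held the motif (30.77%), against 8.44% of tested genes. The E2F share was 6.67% among genes at least 2-fold higher and 5.82% among those at least 2-fold lower. None of the 39 held the AP-1 letters.

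Genes of growth and protein supply moved the other way from cell cycle genes, in part depending on scaling. Of 38 Myc and ribosome biogenesis genes, 32 were lower (84.2%) and 1 higher, with a median of -0.52, and 27 were lower with library totals alone. Myc itself was lower in edgeR (log2 fold change -1.43, adjusted p = 0.0432). Its call was lost in 16 of 21 alternatives, among them the 4 WT libraries alone, upper-quartile scaling and library totals. Rrp12, an exporter of ribosomal subunits, had 76.7 and 71.5 CPM in WT IR libraries, against 129 and 131 CPM in WT DMSO libraries, and Ddx21, a nucleolar helicase, had 607 and 560.0 CPM with isorhamnetin and 931 and 912 CPM with DMSO. The higher gene, Mxi1, is an antagonist of Myc (67.8 and 80.6 CPM with isorhamnetin and 49.3 and 39.2 CPM with DMSO). For cytosolic ribosomal proteins 46 of 78 were lower with a median of -0.28, but with library totals 5 were lower, with upper-quartile scaling 21, and with a WT library left out 5 to 29. Proteasome subunits had 17 of 32 lower, and 4 with library totals, and cytosolic chaperones had 13 of 21 lower, and 6 with library totals. Psma6, a proteasome core subunit, had 212 and 189.5 CPM in WT IR libraries, against 362 and 395 CPM in WT DMSO libraries and was the largest change of its list. With a WT library left out the proteasome count was 4 to 15 and that of the chaperones 5 to 10, lowest without the second WT DMSO library for the proteasome and without the second WT IR library for chaperones and ribosomal proteins.

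Lysosomal genes rose in 21 of 44 (47.7%), with 6 lower (3 without the second WT IR library or either WT DMSO library) and a median of 0.24. Lipa, the lysosomal acid lipase that frees cholesterol and fatty acids, had 1128 and 1335 CPM in WT IR libraries, against 186 and 181 CPM in WT DMSO libraries (log2 fold change 2.75, SE 0.11, adjusted p = 1.84e-09). Psap, the precursor of saposins, had 758 and 914 CPM in WT IR libraries, against 376 and 353 CPM in WT DMSO libraries, and Gla, alpha-galactosidase A, had 41.5 and 52.02 CPM with isorhamnetin and 16.5 and 16.2 CPM with DMSO. The groups were separated by over 2-fold in each. Ctsb, cathepsin B, had 2318 and 2209.7 CPM with isorhamnetin and 1473 and 1469 CPM with DMSO, and Tfeb, a transcription factor of lysosomal genes, had 15.1 and 15.96 CPM with isorhamnetin and 7.64 and 6.49 CPM with DMSO (log2 fold change 1.14, adjusted p = 3.62e-05). Lamp2 and Cd68 did not pass (0.04 and -0.01 on the log2 scale), so the list did not move as a block. In lipid handling, Nceh1, a cholesterol ester hydrolase, had 92.5 and 114 CPM with isorhamnetin and 30.4 and 32.7 CPM with DMSO. Of glycolysis and hypoxia genes 13 of 30 were lower, among them Hk2, hexokinase 2 (163 and 139 CPM with isorhamnetin and 300.4 and 325 CPM with DMSO), while Hk3 rose (62.8 and 61.5 CPM with isorhamnetin and 27.9 and 28.4 CPM with DMSO).

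Surface receptors changed in both directions. Among migration receptors 6 of 17 rose and 8 fell, or 5 fell without the second WT IR library. Cxcr4, the receptor for CXCL12, had 21.01 and 37.3 CPM in WT IR libraries, against 0.235 and 0.449 CPM in WT DMSO libraries, and S1pr1, a sphingosine-1-phosphate receptor, had 7.57 and 20.1 CPM in WT IR libraries, against 0.705 and 0.842 CPM in WT DMSO libraries. Both were near absent with DMSO, and the 2 isorhamnetin libraries were apart from each other, the second being the higher. Gpr183, a receptor for oxysterols, had 91.9 and 101 CPM with isorhamnetin and 35.3 and 32.8 CPM with DMSO. On the other side, C5ar1, the C5a receptor, had 48.6 and 36.5 CPM with isorhamnetin and 95.5 and 104 CPM with DMSO, and Ccr1 had 2.75 and 1.58 CPM with isorhamnetin and 17.1 and 18.00 CPM with DMSO. Integrins split too, with Itgax, CD11c, at 6.99 and 5.12 CPM with isorhamnetin and 34.03 and 39.2 CPM with DMSO and Itgb5 at 73.2 and 97.1 CPM with isorhamnetin and 33.5 and 27.9 CPM with DMSO. Trem2, a lipid-sensing receptor of macrophages, had 167 and 195 CPM in WT IR libraries, against 73.00 and 72.98 CPM in WT DMSO libraries, while Fcgr1, the high-affinity IgG receptor, had 37.7 and 41.3 CPM with isorhamnetin and 111 and 110.2 CPM with DMSO. Of 19 lineage genes 4 were higher and 5 lower, with a median of 0.05. Among the lower ones, Spi1, the lineage factor PU.1, had 321 and 277 CPM with isorhamnetin and 459 and 476 CPM with DMSO. Cebpd, an inflammation-linked C/EBP factor, had 26.7 and 18.9 CPM in WT IR libraries, against 139.8 and 162 CPM in WT DMSO libraries. The higher ones included Id2 (log2 fold change 0.64). Klf4 had 24.6 and 24.6 CPM with isorhamnetin and 11.99 and 8.65 CPM with DMSO and Foxo1 had 11.2 and 10.2 CPM with isorhamnetin and 5.99 and 5.28 CPM with DMSO, both higher. Immediate early genes were lower in 12 of 22, such as Ier2 (61.1 and 49.8 CPM with isorhamnetin and 125 and 135 CPM with DMSO) and Jund (56.9 and 48.9 CPM with isorhamnetin and 120.4 and 123 CPM with DMSO), and Dusp2, a nuclear MAP kinase phosphatase, had 10.6 and 7.43 CPM with isorhamnetin and 47.9 and 60.3 CPM with DMSO.

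Some lists had few calls, or calls that turned on 1 library or on the scaling. Of 62 nuclear genes of oxidative phosphorylation, 1 was higher (0 without any one WT library) and 0 were lower, with a median of -0.08; with library totals 11 were higher and the median was 0.075. In the 4 WT libraries alone the same list had 5 higher and 14 lower. None of 13 mitochondrially encoded transcripts passed, with a median of 0.06, and 0 did so with DESeq2 or at an unadjusted p under 0.05 in edgeR, while 1 was higher without the second WT DMSO library. In the other lists given with 0 members in a direction, both DESeq2 and the unadjusted p also gave 0 there, except for 1 higher gene of the STAT list at the unadjusted p and, for lower oxidative phosphorylation genes, 7 at the unadjusted p and 3 with DESeq2. Endoplasmic reticulum chaperones had 4 higher and 4 lower of 21, but 2 and 1 without the second WT IR library or either WT DMSO library, and 6 and 1 with library totals. ATF4 and amino acid genes had 5 higher and 7 lower of 28, but 1 lower without the second WT IR library or either WT DMSO library, 6 higher and 1 lower with upper-quartile scaling, and 9 and 1 with library totals. The Ah receptor list had 1 of 5 in each direction, and 0 higher when any WT library was left out. Rictor, the gene edited in one of the knockout lines, had 46.04 and 43.7 CPM in WT IR libraries, against 60.8 and 62.99 CPM in WT DMSO libraries and was lower (log2 fold change -0.46, adjusted p = 0.00117), and Gata3 had 0.908 and 0.814 CPM with isorhamnetin and 1.15 and 1.60 CPM with DMSO and did not pass (adjusted p = 0.331).

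**Figure D4:**
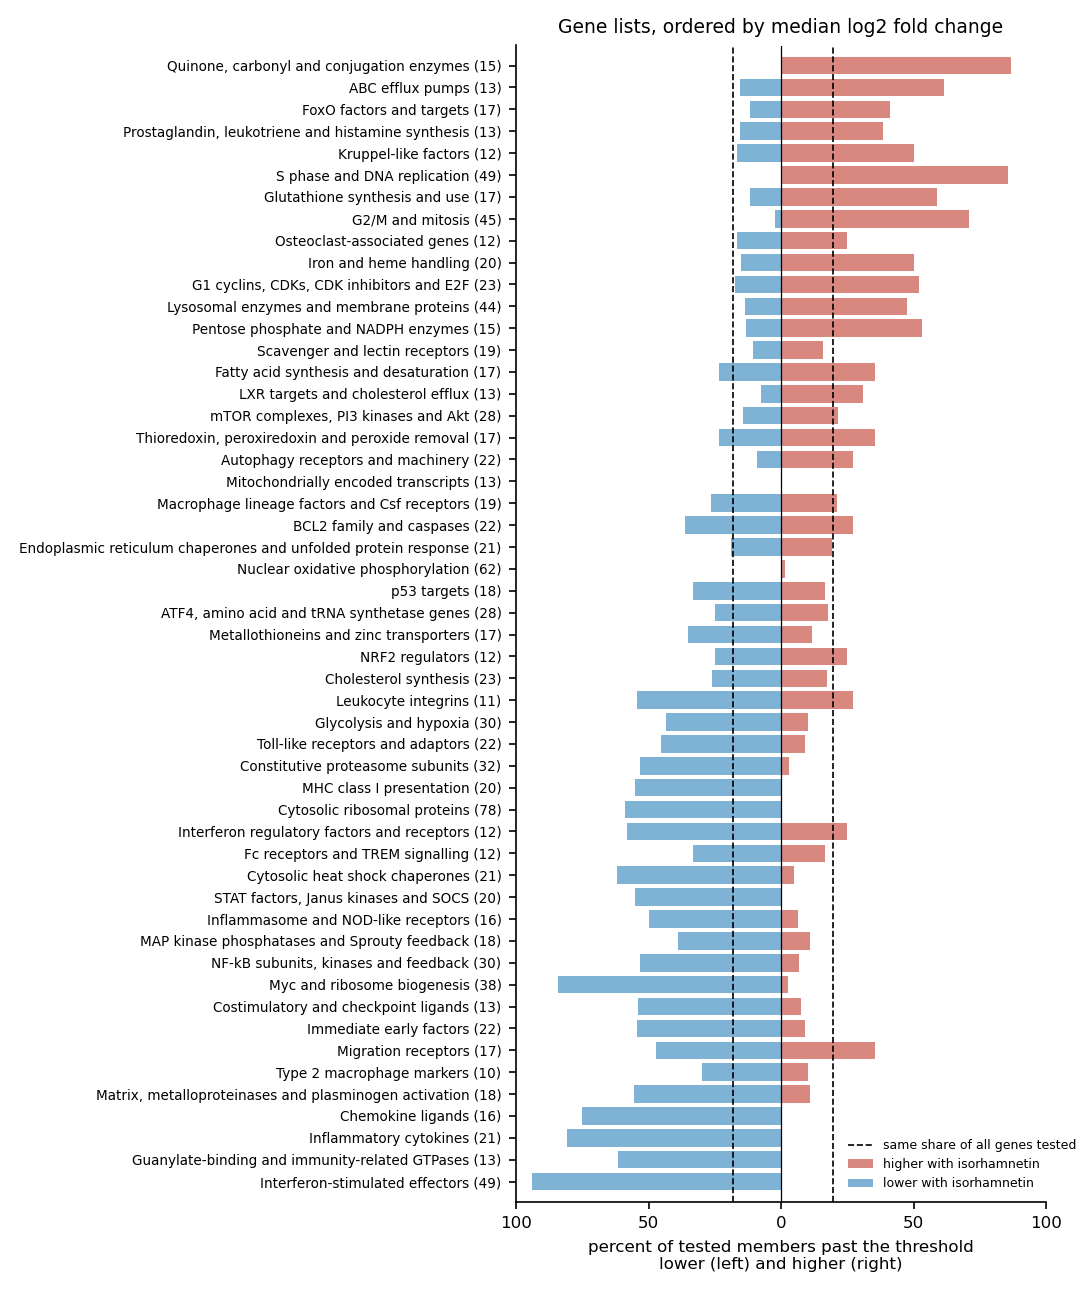
Share of each drawn list's tested members that were higher (red, to the right) or lower (blue, to the left) with isorhamnetin, with the number tested in brackets. The Ah receptor, MHC class II and nitric oxide lists, which had the fewest members tested, are not drawn. Dashed lines mark the same shares among all genes tested, 19.8% higher and 18.3% lower; quinone enzymes and S phase genes reach farthest right and interferon-stimulated effectors farthest left.

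Reads in introns, which come largely from unspliced RNA, were set beside exon reads. Of 11450 genes tested, 1686 (14.7%) passed, with 851 (7.43%) higher and 835 (7.29%) lower with isorhamnetin. Intron reads were far fewer, and without the second WT IR library 836 genes passed. Scaled with the exon library sizes, intron reads gave 304 higher and 1309 lower. Interferon-stimulated effectors had 39 of 43 lower in introns, cytokines 10 of 14, and NF-kB genes 12 of 30. S phase genes had 20 of 49 higher, G2/M genes 27 of 45, and quinone enzymes 5 of 13. The same direction thus appeared in both kinds of reads for these lists.

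The change in exon reads minus the change in intron reads was tested in 1 model. Of 10600 genes, 100 (0.943%) passed, 45 (0.425%) with the more positive change in exons and 55 (0.519%) in introns. With exon library sizes 49 passed, 41 and 8 in the 2 directions, and among genes that overlap no other gene 57 passed. Il1a fell further in exons than in introns (-8.80 and -4.08 on the log2 scale; difference -4.73, SE 0.50, adjusted p = 5.33e-06). Its intron reads were 18 and 13 in WT IR libraries, against 230 and 338 in WT DMSO libraries. Ccl3 did likewise (-3.71 and -2.37; difference -1.39, SE 0.17, adjusted p = 4.75e-05). Nox1, an NADPH oxidase, fell in exons and not in introns (-3.38 and 0.20; difference -3.62, SE 0.55, adjusted p = 0.000703). Among genes that rose, Gclm rose further in exons (2.59 and 1.41; difference 1.17, SE 0.17, adjusted p = 0.00058), and Itgb5 rose in exons with -0.22 in introns (difference 1.67, SE 0.16, adjusted p = 2.15e-06). Trem2 instead changed more in introns (1.31 and 2.68; difference -1.37, SE 0.16, adjusted p = 2.48e-05). Cd14 and Nfkbiz, an atypical IkB protein, also passed (difference -0.98, SE 0.16, adjusted p = 0.00137 for Cd14 and difference -1.68, SE 0.27, adjusted p = 0.00167 for Nfkbiz), but without the second WT IR library their adjusted p-values were 0.0809 and 0.096, and Cd14 had 0.0584 without the second WT DMSO library.

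Abi1, an adaptor of the WAVE actin complex, stood apart. It had 121 and 117 CPM in WT IR libraries, against 183 and 189 CPM in WT DMSO libraries in exons, a modest decrease, but 2100 and 1100 intron reads in WT IR libraries, against 12649 and 16003 in WT DMSO libraries. Its intron change was -3.08 and the difference 2.49, SE 0.19, adjusted p = 2.37e-08. Abi1 overlaps another listed gene, so it was not in the fit on genes that overlap no other gene. Whether the intron reads of Abi1 came from its own unspliced RNA was not tested. Banp, a nuclear matrix protein, had a similar pattern, with 279 and 273 intron reads with isorhamnetin and 679 and 1403 with DMSO. Its exon change of -0.07 did not pass (difference 1.68, SE 0.24, adjusted p = 0.000376). Banp also overlaps another listed gene and was not in that fit.

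**Figure D5:**
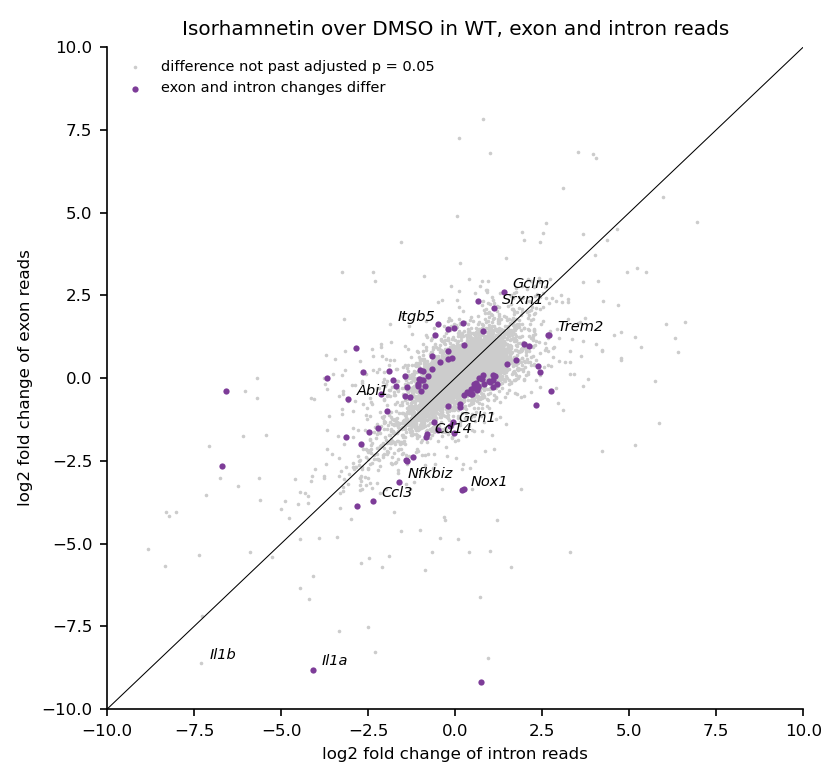
Log2 fold change of exon reads against that of intron reads, isorhamnetin over DMSO in WT cells, for genes tested in both; purple points differ between the 2 at an adjusted p of 0.05 and the line marks equal change. Abi1 lies left of the line with the intron change of -3.08, and Il1a lies below it.

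The response of WT cells was compared with the mean response of the Rictor-KO and GATA3-KO lines. In 2800 genes (23.7%) the response differed, more positive in WT in 1529 (12.9%) and more negative in 1271 (10.8%). Both the WT response and this difference use the 2 WT DMSO libraries, which were unlike the other 10 on some lists. Csf3 had 5.73 and 3.26 CPM in WT IR libraries, against 189.6 and 269 CPM in WT DMSO libraries, a far wider gap than in either knockout line. Its levels were 1.67 and 2.04 CPM with isorhamnetin and 2.53 and 2.24 CPM with DMSO in Rictor-KO libraries, and 3.91 and 4.17 CPM with isorhamnetin and 5.17 and 5.81 CPM with DMSO in GATA3-KO libraries (difference -5.27, SE 0.32, adjusted p = 9.25e-06). For Cxcl2 the levels were 23.1 and 33.9 CPM with isorhamnetin and 24.6 and 24.9 CPM with DMSO in Rictor-KO, and 38.9 and 47.5 CPM with isorhamnetin and 35.3 and 39.5 CPM with DMSO in GATA3-KO (difference -5.05, SE 0.73, adjusted p = 0.00433). The WT DMSO libraries thus had the highest levels of both genes among the 12 libraries. Slc43a2, a carrier of neutral amino acids, had 203 and 238 CPM in WT IR libraries, against 50.1 and 41.4 CPM in WT DMSO libraries, and was called higher. In Rictor-KO it had 77.4 and 47.7 CPM with isorhamnetin and 63.9 and 39.7 CPM with DMSO, and in GATA3-KO 34.9 and 33.1 CPM with isorhamnetin and 46.1 and 38.8 CPM with DMSO (difference 2.29, SE 0.35, adjusted p = 0.00352). For Slc43a2 the WT IR libraries were the high ones, and the WT DMSO libraries lay inside the range of the knockouts. By list, the difference was negative in 42 of 49 interferon-stimulated effectors and 14 of 21 cytokines. It was positive in 40 of 49 S phase genes, 16 of 44 lysosomal genes and 7 of 15 quinone enzymes. For the glutathione list it was positive in 3 and negative in 5 of 17. Summed effector levels were lower with isorhamnetin in the knockouts too. In Rictor-KO they were 1125 and 1282 CPM, against 1722 and 1718 CPM with DMSO. In GATA3-KO they were 1445 and 1462 CPM, against 1788 and 1913 CPM with DMSO. Summed S phase levels, higher with isorhamnetin in WT, were lower with it in both knockout lines. Those sums were 8173 and 7910 CPM in Rictor-KO, against 8429 and 8405 CPM with DMSO. For GATA3-KO the S phase sums were 7685 and 7539 CPM, against 8109 and 7981 CPM with DMSO. Gclm had 306 and 351 CPM with isorhamnetin and 74.6 and 90.7 CPM with DMSO in Rictor-KO, and 357 and 330.0 CPM with isorhamnetin and 98.1 and 99.7 CPM with DMSO in GATA3-KO, so its level was higher with isorhamnetin in all 3 genotypes (difference 0.70, SE 0.13, adjusted p = 0.00134).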

How the data were processed

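Per the labels' protocols, total RNA was column-purified before standard Illumina library preparation. The authors deposited, for each library, whole-number counts of reads per gene in exons and introns. Gene positions follow GRCm38, per the submitters' processing notes. The aligner, the counting program and any use of strand are not given in the sources used here. Among exon values of 1 to 4 reads, 81.3% were even, so both reads of a pair appear to be counted, and floors in reads cover counting error only and are optimistic. TPM values, deposited by the authors beside the counts, were scaled per exon length and read total and used for marker genes only. Tables of the authors' own comparison, with log2 values, p-values and false discovery rates, were deposited too and only described. Of the tested genes, 5236 had a false discovery rate under 0.05 in the authors' deposited table, and 4323 of these were called here. The authors' deposited log2 fold changes had a median absolute difference of 0.0044 from those computed here.

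The analysis used edgeR 4.0.16 and R 4.3.3. Genes passed filterByExpr on the 6 groups, libraries were scaled with TMM, and 1 model with a mean per group was fitted over all 12 libraries. TMM factors were 1.007 and 1.031 for WT IR, 0.912 and 0.913 for WT DMSO, and 0.992 to 1.05 for the rest. The robust quasi-likelihood F test took both directions, with Benjamini-Hochberg adjustment over all genes of a contrast and a threshold of 0.05, which a gene had to pass to be called higher or lower. Each SE was derived from the test, as the absolute log2 change divided by the square root of the F statistic. It is not a separately estimated standard error. The spread in it is shared over all 12 libraries, with n = 2 libraries per group. Intron reads were fitted alike, and the exon minus intron change in 1 model over both. The code was tested on simulated data.

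The comparison, the lists and the rule for naming genes were chosen with earlier results of these data known. The rule takes the 12 largest changes in each direction among called genes with a mean log2 CPM of at least 3 and no overlap, up to 3 members per list and direction by smallest p, the 6 largest in each direction of the other contrasts (with a mean of at least 50 intron reads for exon minus intron, and of log2 CPM 3 for WT minus knockouts) and of mean CPM, and the regulators. Some genes that the rule names are not reported here. Genes named outside it were chosen after their values were seen. These are the inflammatory genes Tnf, Il6, Tgfb1, Csf1, Il10, Il15, Il7, Pf4, Nlrp3, Casp1, Cd40, Tnfaip3, Ikbkb, Socs3 and B2m. They also include the metabolic genes Hmox1, Blvrb, Slc7a11 and Tfeb. Further ones are the cycle and growth genes Pcna, Mcm6, Ccna2, Ccne1, E2f7, Gins3, Ddx21 and Myc. The rest are the surface or lysosomal genes Plaur, Fcgr1, Lamp2, Cd68 and Cd28, and the T cell gene Lck. Genes with under 90% unique reads, or that share exons with another gene, are uncertain. Without strand, a gene and its antisense partner cannot be told apart.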

Additional observations from a re-analysis of the deposited data

Results flagged for a closer look

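The response to isorhamnetin differed between WT cells and the mean of the 2 knockout lines in 2800 genes, by edgeR's test of that difference. The response was more positive in WT for Gpnmb (2.58 on the log2 scale), Slc43a2 (2.29), Slc8a1, a sodium and calcium exchanger (2.16), Ptgs1, the constitutive cyclooxygenase (2.13), Plxnd1, a semaphorin receptor (2.12), and Angptl2 (2.08). It was more negative for Il1a (-7.82), Il1b (-7.15), Ccl2 (-5.80), Csf3 (-5.27), Cxcl2 (-5.05) and Phlda1 (-3.68). Each of these differences uses the 2 WT DMSO libraries. Without the second WT DMSO library, Gpnmb (adjusted p = 0.0628), Angptl2 (0.0513), Il1b (0.0641) and Ptgs1 (0.122) missed the threshold. Il1b also missed it without the second WT IR library (0.0949) or the first Rictor-KO IR library (0.0795), and Il1a without the second GATA3-KO IR library (adjusted p = 1) and in the fit with a replicate block (0.0857). Ptgs1 was lost in 7 of the 12 fits that left out 1 library.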

How the results depend on the processing

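None of the named genes called in exon reads changed sign under the alternatives run. The balance of higher and lower calls did turn: exon reads gave 2256 higher and 2366 lower in DESeq2, and intron reads 304 and 1309 and exon minus intron 41 and 8 with exon library sizes. Against 4493 genes called in exon reads, 2592 to 4655 were called when 1 library was left out, and 948 when a change of at least 1.5-fold was tested. Genes at least 2-fold changed numbered 1059, with 770 to 1087 when 1 library was left out and 541 among genes with a mean log2 CPM of at least 3. In intron reads the 1686 calls became 836 to 1772 with 1 library left out, and in genes that overlap no other gene 1195 of 7629 were called. The 100 exon minus intron calls became 22 to 110 with 1 library left out, 49 with exon library sizes and 57 among genes that overlap no other gene. The 2800 differences between WT and knockouts became 1391 to 3050. DESeq2 called 4622 genes in exons.

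The replicate numbers did not pair the WT libraries. Deviations of same-numbered libraries had a correlation of -0.0369 across genes in WT, 0.654 in Rictor-KO and 0.267 in GATA3-KO. Among genes with a mean log2 CPM of at least 4, the correlations were -0.182, 0.802 and 0.685. Same-numbered knockout libraries thus deviated together, which the main fit, also for WT minus knockouts, did not take into account. A fit with a replicate block within each genotype called 6204 genes in exons, 1132 at least 2-fold, 2072 in introns, 121 for exon minus intron, and 4902 for WT minus knockouts. The 4 WT libraries alone gave 5743 calls in exons, 1559 in introns and 107 for exon minus intron.

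Of 313 genes tried one by one and called in exons, 166 kept their call throughout. Calls were lost for 54 when a WT library was left out, 137 at 1.5-fold, 21 with library totals, 10 in the 4 WT libraries alone, 2 with the block (Slc7a11 at an adjusted p of 0.0559 and Myc at 0.0668) and 1 in DESeq2. The cause was not tested. Precision is limited by 2 libraries per group, and in introns by far fewer reads than in exons.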
